A study of Mus musculus with 272 samples.

Results

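The Wnt pathway was examined here through 37 genes in skeletal muscle stem cells (MuSCs): the 19 *Wnt* ligands, 12 receptors (the *Fzd* family of 10 with *Lrp5* and *Lrp6*) and 6 effectors (*Ctnnb1*, *Axin2*, *Lef1*, *Tcf7*, *Tcf7l1* and *Tcf7l2*). They were taken by name from the GENCODE M21 annotation of the mm10 genome, which holds 21938 protein-coding genes on the assembled chromosomes. All 37 were found. For each gene, peaks of open chromatin (ATAC-seq) and of the histone marks H3K4me3, H3K27ac and H3K27me3 (ChIP-seq) were counted at the promoter, defined as 3 kb on either side of every annotated transcription start site (TSS), and in the rest of the gene body.

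The series holds 272 samples, most of them sequencing of CRISPR-Cas9-edited sites, and 8 of them carry the peak lists used here, with 2 replicates for each of the 4 features. All 8 came from GFP-positive MuSCs sorted from hindlimb muscles of Pax7Cas9 mice, in which Cre expressed from *Pax7* switches on a Cas9 knockin. Every library therefore came from Cas9-expressing cells selected through *Pax7*, and no library from cells without Cas9 was compared. The labels give the tissue but no strain, age, sex or AAV treatment for these libraries, and do not say whether the replicates came from separate animals.

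Wnt ligands are secreted lipid-modified glycoproteins that bind Frizzled receptors, in the canonical branch together with the co-receptors LRP5 and LRP6. Binding halts the destruction complex, in which AXIN2 is a scaffold, so that β-catenin (encoded by *Ctnnb1*) accumulates and acts in the nucleus with the DNA-binding TCF/LEF proteins. In muscle the pathway is known for roles in the myogenic commitment and differentiation of MuSCs, and WNT7A acting through FZD7 is known for promoting their symmetric expansion. Among the chromatin features, H3K4me3 marks CpG-rich promoters, H3K27ac marks active promoters and enhancers, and H3K27me3 is deposited by Polycomb complexes at genes held in a repressed state. Promoters that carry H3K4me3 and H3K27me3 together are often called bivalent.

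Promoters of 7 genes are printed first to show the sequences behind the states described below, with every CpG dinucleotide in capitals, since CpG density is the sequence feature that H3K4me3 and Polycomb marks are best known to follow. The sequences are the bases just before a RefSeq start site (GRCm38.p6, the same coordinates as mm10), written 5′ to 3′ along the gene's strand and cut to the longest run outside annotated exons. *Wnt1* and *Wnt9b* stand for ligands with H3K27me3 but not H3K4me3 in both replicates, *Wnt10b* and *Wnt11* for ligands with H3K4me3 and H3K27me3, *Wnt9a* for the acetylated ligand, and *Fzd4* and *Ctnnb1* for acetylated promoters of a receptor and an effector. These states are of the whole promoter window, and the 250 bases before the start touched H3K27me3 peaks in 2 replicates for *Wnt1* and *Wnt9b*, 1 for *Wnt10b* and 0 for *Wnt11*, and H3K27ac peaks in 2 for *Fzd4*, 1 for *Ctnnb1* and 0 for *Wnt9a*.
Wnt1 (chr15:98789607-98789856, plus strand): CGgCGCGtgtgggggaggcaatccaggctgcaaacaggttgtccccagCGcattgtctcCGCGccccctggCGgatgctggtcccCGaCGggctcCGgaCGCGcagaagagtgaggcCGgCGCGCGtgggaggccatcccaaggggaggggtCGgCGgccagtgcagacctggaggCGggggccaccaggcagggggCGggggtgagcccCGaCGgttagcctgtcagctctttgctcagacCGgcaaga
Wnt9b (chr11:103749822-103750071, minus strand): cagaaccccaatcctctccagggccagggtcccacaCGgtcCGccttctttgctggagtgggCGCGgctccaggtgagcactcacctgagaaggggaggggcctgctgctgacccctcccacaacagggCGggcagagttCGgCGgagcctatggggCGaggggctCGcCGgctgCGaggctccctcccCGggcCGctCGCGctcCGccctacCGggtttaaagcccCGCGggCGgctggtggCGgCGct
Wnt10b (chr15:98778151-98778400, minus strand): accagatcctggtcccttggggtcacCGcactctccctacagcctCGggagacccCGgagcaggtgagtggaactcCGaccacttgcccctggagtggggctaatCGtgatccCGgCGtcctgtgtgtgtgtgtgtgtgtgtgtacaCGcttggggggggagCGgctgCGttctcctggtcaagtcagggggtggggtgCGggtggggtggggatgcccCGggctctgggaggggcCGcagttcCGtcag
Wnt11 (chr7:98834862-98835111, plus strand): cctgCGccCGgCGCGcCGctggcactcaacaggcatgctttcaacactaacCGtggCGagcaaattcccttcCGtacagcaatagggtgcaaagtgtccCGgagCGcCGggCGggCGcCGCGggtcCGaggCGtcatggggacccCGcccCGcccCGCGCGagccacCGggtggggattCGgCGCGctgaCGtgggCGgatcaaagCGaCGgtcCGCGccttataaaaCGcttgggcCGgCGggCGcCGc
Wnt9a (chr11:59306680-59306927, plus strand): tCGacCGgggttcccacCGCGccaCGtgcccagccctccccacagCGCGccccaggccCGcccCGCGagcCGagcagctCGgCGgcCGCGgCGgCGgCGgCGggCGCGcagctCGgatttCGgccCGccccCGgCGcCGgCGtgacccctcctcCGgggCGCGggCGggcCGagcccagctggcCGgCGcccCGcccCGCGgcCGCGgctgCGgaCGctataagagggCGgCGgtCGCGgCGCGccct
Fzd4 (chr7:89404223-89404354, plus strand): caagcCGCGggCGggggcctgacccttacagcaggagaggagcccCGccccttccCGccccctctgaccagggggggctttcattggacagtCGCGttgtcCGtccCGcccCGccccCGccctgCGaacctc
Ctnnb1 (chr9:120933150-120933399, plus strand): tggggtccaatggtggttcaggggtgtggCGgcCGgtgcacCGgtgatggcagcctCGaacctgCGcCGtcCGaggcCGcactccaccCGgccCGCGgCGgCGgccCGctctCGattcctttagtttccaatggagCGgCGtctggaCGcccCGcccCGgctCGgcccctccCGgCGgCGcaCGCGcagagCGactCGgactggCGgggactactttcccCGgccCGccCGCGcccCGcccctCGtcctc

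The 250 bases before the start held 23 CpGs in *Wnt1*, 22 in *Wnt9b*, 14 in *Wnt10b*, 37 in *Wnt11*, 48 in *Wnt9a*, 25 in *Fzd4* (12 of them in the printed stretch) and 35 in *Ctnnb1*, against a median of 10 over 20150 RefSeq promoters of 16522 protein-coding genes. The *Wnt9a* promoter was among the most CpG-dense of all, with fewer CpGs in 99.8% of promoters. The RefSeq table matched 27 of the 37 genes, too few for a summary of base composition over the classes, so none is given. The TCF/LEF motif letters CTTTGAA or CTTTGAT, searched on both strands, were in 2 of the 36 promoters of these 27 genes, 5.56% against 6.64% of all promoters. Those 2 were the *Wnt11* promoter printed above, where CTTTGAT lies on the opposite strand at -51 to -45 from the start, and one of the *Wnt5b* start sites.

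The sorted population was described with marker lists. They were drawn up with results of these data known, so they are no independent check of the sort. H3K27ac was at the promoter in both replicates at 12 of 13 MuSC marker genes, against 46.6% of all protein-coding genes. It was at 9 of 49 markers of fibro-adipogenic, endothelial, blood, myofibre and neuronal cells. The 9 included 3 of the 10 fibro-adipogenic and 3 of the 10 myofibre markers, and their part in the results was not tested. The lists held 94382 to 140716 peaks for ATAC-seq, 18001 to 20512 for H3K4me3, 18584 to 24209 for H3K27ac and 6064 to 10458 for H3K27me3. The number of reads behind them is unknown. Fold is the peak caller's enrichment over its local background, and it compares genes within 1 library better than it compares libraries. In a gene with several start sites, the highest peaks of different features or replicates need not lie at the same start.

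The 3 classes had different promoter states. Most ligands carried H3K27me3 and almost none H3K27ac, whereas most receptors and effectors carried H3K27ac and few H3K27me3. With a peak required in both replicates, H3K27ac was found at 1 of 19 ligands, 9 of 12 receptors and 4 of 6 effectors, against 46.6% of all protein-coding genes. H3K27me3 was found at 13 of 19 ligands, 1 of 12 receptors and 1 of 6 effectors, against 4.81% of all protein-coding genes. These counts ask for a peak anywhere in the promoter in each replicate, not at the same place. At *Wnt3*, *Wnt4*, *Wnt5a*, *Wnt6*, *Wnt11* and *Fzd10*, no H3K27me3 peak of replicate 1 overlapped one of replicate 2. The H3K27me3 lists also hold peaks with a q above 0.05. With a q of at most 0.05 the mark was no longer at most ligands. It was then at 9 of 19 ligands, 0 of 12 receptors and 1 of 6 effectors, against 3.25% of all protein-coding genes. The order of the classes was the same in each replicate taken alone, where H3K27me3 was found at 14 and 15 ligands, 1 and 3 receptors, and 1 and 2 effectors. These are counts without a test, since the genes were chosen with results of these data known. In bulk libraries, fewer cells with a mark and less of the mark per cell cannot be told apart.

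**Figure D1:**
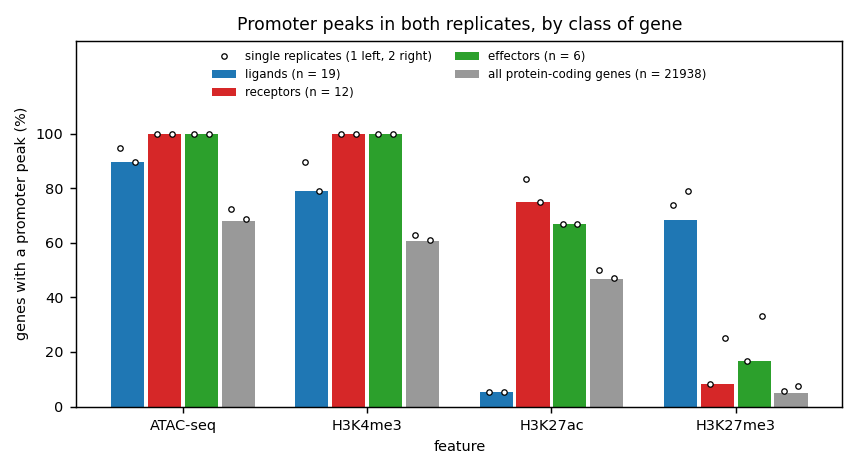
Bars give the percentage of ligands (n = 19), receptors (n = 12), effectors (n = 6) and all protein-coding genes (n = 21938) with a promoter peak in both replicates, by feature, and open circles give replicates 1 (left) and 2 (right) alone. H3K27ac stands at 5.26% of ligands and 75% of receptors, and H3K27me3 at 68.4% of ligands and 8.33% of receptors.

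Open chromatin and H3K4me3 were common to all 3 classes. ATAC-seq peaks were found in both replicates at 17 of 19 ligands, 12 of 12 receptors and 6 of 6 effectors, against 67.8% of all protein-coding genes. H3K4me3 was found at 15 of 19 ligands, 12 of 12 receptors and 6 of 6 effectors, against 60.8%. The 4 genes where H3K4me3 was not found in both replicates, for which the share of all protein-coding genes was 39.2%, were the ligands *Wnt1*, *Wnt3*, *Wnt8a* and *Wnt9b*.

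Where H3K4me3 was present, it was lower at ligands. The median fold of the highest H3K4me3 peak was 7.18 in replicate 1 and 6.6 in replicate 2 for ligands, 22.2 and 18.5 for receptors, and 28.6 and 20.7 for effectors. All protein-coding genes with a peak had medians of 23.9 and 17.6. Of the 15 ligands with the mark in both replicates, 14 were below the median of all genes in both and none was above it in both. Receptors were split evenly, with 5 of 12 above and 5 below in both replicates, and 3 of 6 effectors were above and 1 below. The H3K4me3 peaks of ligands also covered fewer bases of the promoter, with medians of 1155 and 1088 bp, against 2574 and 2168 bp for receptors and 3103 and 2702 bp for effectors. The effectors have more annotated start sites (a median of 6, against 2 for ligands and 1 for receptors), so their promoter windows are longer.

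**Figure D2:**
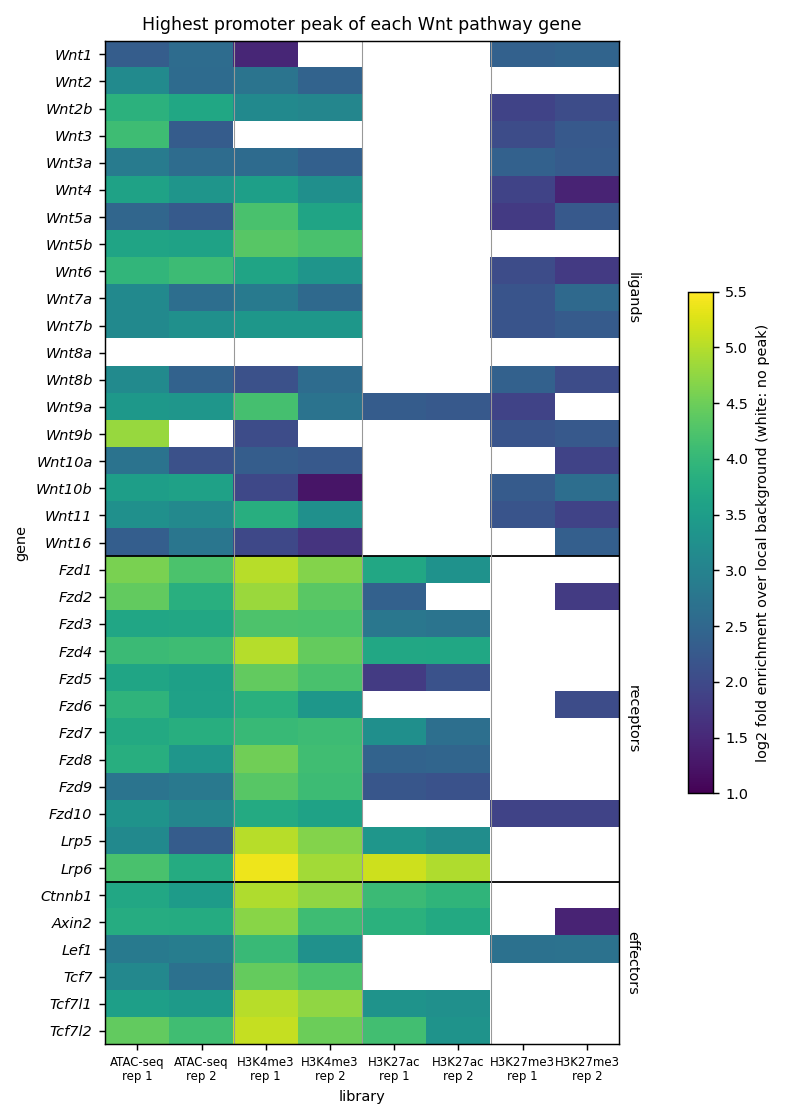
Each cell gives the log2 fold enrichment of the highest promoter peak of a gene (rows, by class) in a library (columns), and white cells have no peak. The H3K27ac columns are empty for 18 of 19 ligands, and the H3K27me3 columns are filled in both replicates for 13 of them.

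Taking the features together, 10 ligands had H3K4me3 with H3K27me3 in both replicates: *Wnt2b*, *Wnt3a*, *Wnt4*, *Wnt5a*, *Wnt6*, *Wnt7a*, *Wnt7b*, *Wnt8b*, *Wnt10b* and *Wnt11*. With the receptor *Fzd10* and the effector *Lef1* this made 12 of the 37 genes, against 3.85% of all protein-coding genes. The 3 ligands *Wnt1*, *Wnt3* and *Wnt9b* had H3K27me3 in both replicates and H3K4me3 in 1 or none, a state of 0.953% of all protein-coding genes. The 4 ligands *Wnt2*, *Wnt5b*, *Wnt10a* and *Wnt16* had H3K4me3 with neither of the other marks, as did *Fzd2*, *Fzd6* and *Tcf7*, together 7 of 37 genes against 11.5% of all. *Wnt8a* had no promoter peak of any feature in either replicate. The marks were measured in separate libraries, so whether 1 allele carried both was not measured.

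*Wnt1*, a canonical Wnt best known from midbrain development, had extended H3K27me3 and little H3K4me3. Its H3K27me3 fold was 5.24 in replicate 1 and 5.48 in replicate 2. The 6 peaks of each replicate ran over 3828 and 5108 bp and covered 1585 and 3333 bp of the promoter. This was more than any other ligand but *Wnt7b* in both replicates, and the promoter window of *Wnt7b* is longer. H3K4me3 was called in replicate 1 alone, at a fold of 2.78 and with its summit 1273 bp past the start, while ATAC-seq gave folds of 5.02 and 6.04. *Wnt10b*, a ligand known for holding back adipogenesis, lies head to head with *Wnt1*, 11.7 kb away on chromosome 15. It had H3K27me3 at 4.88 and 6.16, in 4 and 7 peaks, together with H3K4me3 at 3.95 and 2.40, the lowest H3K4me3 of the genes with a peak in replicate 2. Its ATAC-seq folds were 11.6 and 11.9, above the ligand medians of 9.25 and 6.78. The promoter windows of *Wnt1* and *Wnt10b* do not overlap, so no peak was counted for both.

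*Wnt3* and *Wnt9b*, 24.3 kb apart and also head to head on chromosome 11, did not have promoter H3K4me3 in both replicates, *Wnt3* having none in either and *Wnt9b* a peak in replicate 1. *Wnt3*, a canonical ligand needed for gastrulation, had H3K27me3 in 1 peak of 84 bp at a fold of 4.13 in replicate 1. Replicate 2 had 9 H3K27me3 peaks there, at up to 4.79, none of which overlapped the peak of replicate 1. *Wnt9b*, known from kidney development, had H3K27me3 at 4.50 and 4.79, with summits 68 and 88 bp past the start. The ATAC-seq peak of *Wnt9b* was in replicate 1 alone, a peak of 119 bp with a fold of 28 and its summit at -1962 bp from the start, and its H3K4me3 peak, at a fold of 4.13, was also in replicate 1 alone. The ATAC-seq peak of *Wnt3* was likewise short, 109 and 87 bp covered, and its fold differed between the replicates, at 17.2 and 4.93.

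*Wnt7b*, known from lung and vascular development, had the most extended H3K27me3 of the ligands. It had 9 peaks in each replicate, which covered 2312 and 4165 bp, at folds of 4.50 and 4.91, and H3K4me3 at 10.4 in both. *Wnt7a*, the ligand linked to MuSC expansion, had H3K27me3 at 4.50 and 5.82 and H3K4me3 at 7.18 and 5.81, and no H3K27ac peak in either replicate. *Wnt3a*, the canonical ligand most used to activate the pathway in culture, had H3K27me3 at 5.25 and 4.91 in 4 and 10 peaks beside H3K4me3 at 5.92 and 5.21. All 3 thus held both marks in both replicates with H3K4me3 below the median of all genes.

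*Wnt4*, *Wnt5a*, *Wnt6* and *Wnt2b* had thinner H3K27me3. *Wnt4*, a ligand of kidney and gonad development, had a single peak in each replicate, at folds of 3.75 and 2.74 over 138 and 88 bp, beside H3K4me3 at 11.7 and 9.42. *Wnt5a*, the main ligand of the non-canonical branch, had among the higher H3K4me3 of the ligands, at 18.5 and 12.4, at the gene start. Its H3K27me3, at 3.38 and 4.79, lay 6512 and 4701 bp further on, by downstream start sites, in peaks that did not overlap between replicates, and with the 5′ end alone as promoter it had none. *Wnt6* has a second start site near its end. At its 5′ end H3K4me3 was at 11.9 and 10.2 and H3K27me3 at 4.13 and 3.08, and at the second start H3K4me3 was at 12.4 and 10.02, with H3K27me3 at 3.38 in replicate 2 alone. *Wnt2b* had H3K27me3 at 3.75 and 4.11. The H3K27me3 peaks of *Wnt4* and *Wnt6* did not overlap between replicates either. None of these 4 ligands kept H3K27me3 in both replicates when a q of at most 0.05 was required.

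*Wnt11*, a ligand of the non-canonical branch, had H3K4me3 at 14.2 and 9.62. Its H3K27me3 was at 4.50 and 3.76, in 3 peaks of each replicate that did not overlap between replicates. For *Wnt8b* the marks were not at the gene's 5′ end. Its H3K4me3 summits, with folds of 4.31 and 6.01, lay 18334 and 18387 bp past the annotated gene start, near a second annotated start site, and its H3K27me3 peaks, at 5.25 and 4.11, lay in the same stretch. With the gene's 5′ end alone as its promoter, *Wnt8b* had no H3K4me3, ATAC-seq or H3K27me3 peak in both replicates.

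Most H3K27me3 peaks were narrow, with median widths of 176 and 181 bp over the whole lists, though *Wnt1* had a peak of 1858 bp in replicate 2. Ligands with a peak had median folds of 4.5 and 4.79. The 13 ligands were among 15 genes with the mark in both replicates, which had folds of 3.38 to 6.38 in replicate 1 and 2.74 to 6.5 in replicate 2, where the medians of all marked genes were 4.13 and 4.11. Replicate 2 held more peaks at 11 of the 15 promoters and the same number at 4, and covered more bases at 13. Of the ligand peaks, 22 of 40 in replicate 1 and 43 of 72 in replicate 2 had a q of at most 0.05, close to the 52.7% and 61.5% of the whole lists. Of the same peaks, 15 and 16 overlapped an H3K4me3 peak of the same replicate, and the rest did not. At a −log10 q of at least 5, no ligand kept H3K27me3 in both replicates, and neither did most of the genome, where the share of protein-coding genes went from 4.81% to 0.501%.

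Of the ligands without H3K27me3 in both replicates, *Wnt9a* was the acetylated one. *Wnt9a*, known from joint formation, had H3K27ac at folds of 4.98 and 4.78, in 1 peak of each replicate that covered 551 and 299 bp just past the start. These values were low, at percentiles 7.81 and 6.36 of the genes with an H3K27ac peak. Its H3K4me3 fold differed between the replicates, at 18 and 6.6, and a single H3K27me3 peak of 96 bp was called in replicate 1, at 3.75. Its neighbour *Wnt3a*, 16.2 kb away and head to head with it, had no H3K27ac. *Wnt5b*, a non-canonical ligand, had the highest H3K4me3 of the ligands by the lower replicate, at 20.0 and 18.4, and no promoter H3K27ac or H3K27me3 in either replicate. The highest ATAC-seq folds by the same start were 8.02 and 10.4, and those of 12.3 and 12.1 lay 95122 and 95115 bp further on, at another annotated start. By the lower replicate, *Wnt5a* and *Wnt7b* came next in H3K4me3.

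*Wnt10a* and *Wnt16* had H3K27me3 in replicate 2 alone. *Wnt10a*, a ligand of tooth and hair development that lies 6.19 kb past *Wnt6* on the same strand, had a fold of 3.76 there, and *Wnt16*, known from bone, had 5.13 in 5 peaks that covered 1143 bp. Both had low H3K4me3, at 5.03 and 4.76 for *Wnt10a* and 3.95 and 3.21 for *Wnt16*. *Wnt2*, a ligand of lung and placental vessels, had H3K4me3 at 6.64 and 5.41 with the highest summits at -1333 and -1394 bp from the start and no other histone mark.

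**Figure D3:**
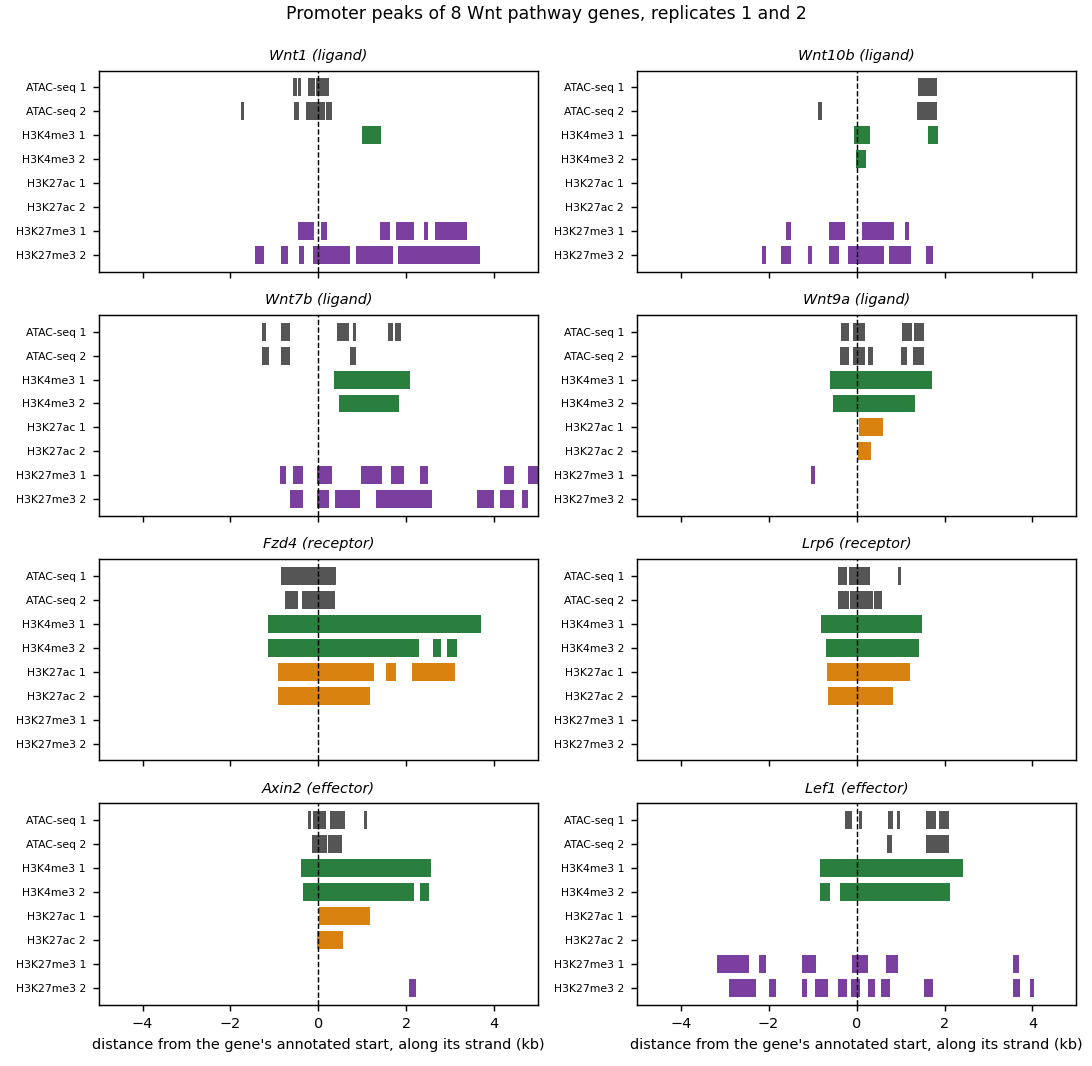
Promoter peaks of 8 genes by distance from the annotated gene start along the gene's strand (kb), with 1 row for each library and bars for the extent of each peak inside 5 kb, for peaks that touch a promoter window. In *Wnt1*, *Wnt10b*, *Wnt7b* and *Lef1* several separate H3K27me3 peaks of differing width spread over both sides of the start, while *Lrp6*, *Fzd4* and *Axin2* have H3K27ac inside their H3K4me3 peaks.

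The receptors formed a mostly acetylated class. H3K4me3 and H3K27ac were found together in both replicates at *Fzd1*, *Fzd3*, *Fzd4*, *Fzd5*, *Fzd7*, *Fzd8*, *Fzd9*, *Lrp5* and *Lrp6*, and with *Wnt9a* and 4 effectors this made 14 of the 37 genes, against 46.2% of all protein-coding genes. Over all 37 genes the state was thus not more frequent than in the genome, and the 75% of receptors and the 5.26% of ligands lie on either side of it.

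*Lrp6*, which encodes a co-receptor of the canonical branch, had the strongest H3K27ac of all 37 genes, with folds of 35.6 and 31.3, at percentiles 95.7 and 97.4 of the genes with a peak. Its H3K4me3 was also the highest of the 37, at 42 and 29.5. *Lrp5*, its paralogue, had H3K27ac at 10.4 and 9.19 and H3K4me3 at 32.3 and 25.5, so the co-receptors shared a state but differed in the height of H3K27ac by more than the replicates of either gene did. ATAC-seq folds near the gene start were 18.5 and 13.7 for *Lrp6*, and for *Lrp5* its 2 peaks there had 4.23 and 4.10 in replicate 1 and 3.56 and 4.58 in replicate 2. Higher *Lrp5* peaks, at 8.76 and 4.93, were short and lay 70964 and 72432 bp past the gene start, at an internal start and at different places in the replicates.

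Among the Frizzled genes H3K27ac ranged widely. *Fzd4*, the receptor for norrin as well as for Wnts, had 13 and 12.9, and *Fzd1* had 13 and 9.84. The *Fzd4* window also holds the start of *Tmem135*, so its peaks cannot be assigned to 1 gene. *Fzd7*, the receptor for WNT7A in MuSCs, had 9.51 and 6.25, *Fzd3* 6.90 and 6.62, and *Fzd8* 5.37 and 5.52. *Fzd9*, at 4.60 and 4.41, and *Fzd5*, at 3.45 and 4.41, were the lowest, and neither kept H3K27ac in both replicates at a −log10 q of at least 5. *Fzd4*, *Fzd1*, *Fzd7* and *Fzd3* did not overlap *Fzd5* and *Fzd9* in either replicate, whereas *Fzd4* and *Fzd1* differed by less than the replicates of *Fzd1*.

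By H3K4me3 the leading receptors were *Lrp6*, *Lrp5* and *Fzd1*, the latter pair with identical folds of 32.3 and 25.5, followed by *Fzd4* at 32 and 21.6. *Fzd1* also had the most open promoter of the receptors, with ATAC-seq at 24.2 and 18.6.

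The remaining 3 receptors did not have H3K27ac in both replicates. *Fzd10* was the one with H3K27me3 in both, at 3.75 over 104 bp and 3.76 over 512 bp, in peaks that did not overlap between replicates. It did not keep this mark in both with a q of at most 0.05 or with 200 bp covered. Its H3K4me3 was at 13.5 and 12, and 2 other annotated genes start in its window. *Fzd2* had high H3K4me3, at 28.5 and 20.4, and open chromatin at 21.3 and 14.3, with H3K27ac at 5.26 in replicate 1 alone and H3K27me3 at 3.42 in replicate 2 alone. *Fzd6*, a receptor of planar cell polarity, had H3K4me3 at 14.5 and 10.4 and H3K27me3 at 4.11 in replicate 2 alone. *Fzd10* and *Fzd6* had the lowest H3K4me3 of the receptors in both replicates.

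The effectors were acetylated with the exception of *Lef1* and *Tcf7*. *Ctnnb1*, which encodes β-catenin, had H3K27ac at 16.9 and 15.5 and H3K4me3 at 31.2 and 27.1. Its promoter window also holds the start of *Ulk4*, and with the 5′-most annotated start alone as promoter *Ctnnb1* lost H3K4me3, H3K27ac and ATAC-seq, whose peaks lay at start sites further downstream. *Axin2*, the destruction complex scaffold that is also a feedback target of the pathway, had H3K27ac at 14.6 and 13.2 and H3K4me3 at 26.1 and 17.1. A single H3K27me3 peak of 142 bp was called at *Axin2* in replicate 2 alone, at 2.74, with a −log10 q of 0.03.

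The 4 TCF/LEF genes encode closely related DNA-binding proteins and differed in state. *Tcf7l2* had H3K27ac at 17.6 and 9.93 and H3K4me3 at 34.6 and 22.5, and *Tcf7l1*, known mainly as a repressor of Wnt targets, had H3K27ac at 9.96 and 9.56 and H3K4me3 at 32.5 and 27. *Tcf7*, known for its role in T cells, had H3K4me3 at 21.7 and 18.8 and neither H3K27ac nor H3K27me3 in either replicate. *Lef1* had the strongest H3K27me3 of the 37 genes in both replicates, at 6.38 and 6.5, the percentiles being 96.1 and 92.3 of the genes with a peak. These highest peaks did not overlap between replicates. The summit of the replicate 1 peak lay at -3031 bp from the start, just outside the promoter window, and that of replicate 2 at -743 bp. Its 6 and 11 peaks ran over 6865 and 6927 bp. It was the single member of the 37 that kept H3K27me3 in both replicates at a −log10 q of at least 5. *Lef1* also had the lowest H3K4me3 of the effectors, at 16.5 and 9.73, and low ATAC-seq, at 7.19 and 7.49. Of its H3K27me3 peaks, 2 of 6 and 6 of 11 overlapped H3K4me3, and an antisense gene also starts in its window.

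**Figure D4:**
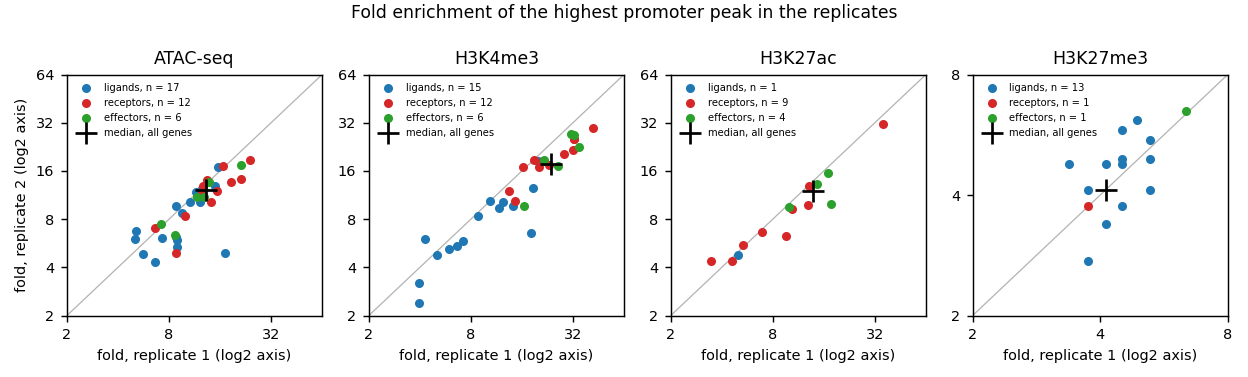
Fold enrichment of the highest promoter peak in replicate 1 (x axis) and replicate 2 (y axis), on log2 axes, for the genes with a peak in both, with 1 panel for each feature. The cross marks the medians of all protein-coding genes with a peak. For H3K4me3, 14 of the 15 ligands lie below the cross on both axes, *Lrp6* stands alone at the top for H3K27ac at 35.6 and 31.3, and *Lef1* at the top for H3K27me3.

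In the gene bodies, outside promoters, ATAC-seq peaks shared by both replicates were found in 14 of 37 genes, against 29.4% of all protein-coding genes. They numbered 94, or 7.81 in each 100 kb of gene body, where all protein-coding genes had 3.37. By class this was 5.66 for ligands, 7.74 for receptors and 9.74 for effectors. Most lay in a few long genes: *Tcf7l2* had 21, *Tcf7l1* 20, *Lrp5* 15, *Wnt5b* 9, *Lrp6* 8 and *Tcf7* 5. The remaining 16 were spread over 8 genes, with 3 each in *Wnt8a*, *Wnt9a* and *Wnt10a*. Among the 94, 4 in *Tcf7l1* and 1 each in *Wnt5b* and *Tcf7* lay within 3 kb of the start of another gene. The highest was in *Tcf7l1*, 153 kb past the start, with folds of 25.4 and 26.2, next to the start of the antisense gene *Gm15401*. *Lrp6* had one of 18 and 16.8 near its end, 115.9 kb past the start.

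**Figure D5:**
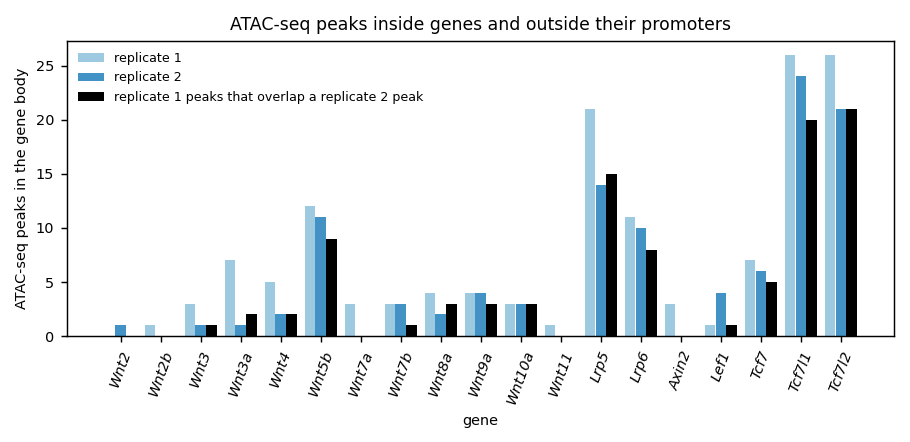
Number of ATAC-seq peaks in the gene body and outside the gene's promoters for the genes with any, in replicate 1, in replicate 2, and shared (replicate 1 peaks that overlap one of replicate 2). *Tcf7l2*, *Tcf7l1* and *Lrp5* hold 21, 20 and 15 of the 94 shared peaks.

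Histone marks in gene bodies were few, also over the genome. Shared H3K4me3 peaks were found in 4 of 37 genes and H3K27me3 in 1, where the shares of all protein-coding genes were 5.15% and 0.862%. The H3K4me3 peaks in *Wnt5b* and *Tcf7l1* lay within 3 kb of the start of another gene, *Fbxl14* and *Gm38320*. H3K27ac peaks shared by both replicates were found in 3 of 37 genes, against 6.7% of all protein-coding genes, with 1 peak each in *Wnt3*, *Wnt5b* and *Lrp5*. The *Wnt3* peak, at chr11:103810104-103810490 and 36.1 kb past the start, had H3K27ac folds of 8.81 and 6.25 and coincided with an H3K4me3 peak of 16.7 and 15.4 and an ATAC-seq peak of 8.86 and 8.03. No other gene starts within 3 kb of that element in the annotation. *Wnt3* therefore had its H3K4me3 and H3K27ac inside the gene, while its H3K27me3 was at the start in both replicates. In replicate 2 alone, 4 further H3K27me3 peaks lay in the *Wnt3* body. The *Wnt5b* peak, with H3K27ac at 37.6 and 37.9 and H3K4me3 at 45.1 and 40.3, lies at the start of *Fbxl14*, a gene inside the *Wnt5b* span. It is in the counts above by its position but is not read as a *Wnt5b* element. The *Lrp5* peak was 4.8 kb past the start with H3K27ac at 4.60 and 4.22, and the strongest shared ATAC-seq peak of the *Lrp5* body, at 10.4 and 12.3, lay at the same place. *Wnt3a* had an H3K4me3 peak of 15.1 and 9.51 in its body, 26.6 kb past the start, together with an ATAC-seq peak of 10.1 and 11.3 and without H3K27ac. The 1 shared H3K27me3 peak in a gene body was in *Wnt10a*, at 4.50 and 4.11.

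A further 57 genes of the pathway were counted in lists by role, drawn up with results of these data known. The intracellular core was acetylated throughout and the secreted antagonists were not. H3K27ac was found in both replicates at 29 of the 57, near the 46.6% of all protein-coding genes, and H3K27me3 at 12, where the share of all genes was 4.81%. All 10 genes of the cytoplasmic core, which relays the signal to β-catenin, had H3K4me3 and H3K27ac and none had H3K27me3. By the lower replicate, the highest H3K27ac of the 57 was at *Csnk1a1*, the kinase that primes β-catenin for degradation, with folds of 38.7 and 44.5, then at *Apc*, the destruction complex scaffold, with 34.9 and 27.6, and at *Gsk3a*, with 23.4 and 21.1. All 8 nuclear cofactors had H3K27ac, among them the co-repressor *Tle1*, which also had H3K27me3 at 3.93 and 2.99.

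None of the 12 secreted antagonists had H3K27ac in both replicates, and 5 had H3K27me3: *Sfrp1* at 3.48 and 4.30, *Wif1* at 3.21 and 3.07, *Sost* at 3.38 and 4.45, *Notum* at 4.13 and 4.11, and *Dkk1* at 4.13 and 4.45. The SFRP and WIF1 proteins bind Wnts, sclerostin (encoded by *Sost*) and DKK1 bind LRP5 and LRP6, and NOTUM removes the lipid from Wnts. Of the 4 R-spondins, secreted amplifiers of the signal, none had H3K27ac, and *Rspo1* had H3K27me3 at 4.13 and 6.16. Among the R-spondin receptors and ligases, *Lgr4*, *Znrf3* and *Rnf43* had H3K27ac, whereas *Lgr5* and *Lgr6* had H3K27me3, at 4.50 and 4.45 and at 5.25 and 3.42. H3K27me3 was also found at the feedback genes *Sp5*, with 6.00 and 5.82, and *Nkd1*, with 3.38 and 6.16, and at the planar polarity gene *Celsr3*, with 4.26 and 5.82. *Porcn* and *Wls*, which lipidate and carry Wnts in the cells that secrete them, had H3K4me3 in both replicates, and H3K27ac in neither list for *Porcn* and in replicate 1 alone, at 4.60, for *Wls*.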

How the data were processed

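The authors trimmed ATAC-seq and ChIP-seq reads with Trim Galore 0.6.10, aligned them to mm10 with BWA 0.7.17-r1188 and removed low-quality, duplicate and blacklisted reads. ATAC-seq alignments were corrected for the Tn5 insertion, and MACS2 2.2.6 was run on each library by itself. The deposited narrow peak lists hold a score, a fold (a ratio over the local background), a −log10 p, a −log10 q and the summit's offset. In the deposited lists −log10 q was at least 1.32 except for H3K27me3, where −log10 p was at least 3.01 and many q values were above 0.05. Fold was not normalized between libraries, and no read depth was used, so no counting interval is given.

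Here a peak counted at a promoter with 1 bp of overlap, and a promoter's fold was that of its highest peak. A feature was called where both replicates had a peak at the promoter, whether or not these peaks overlapped each other. The overlap code was tested on simulated windows, and no significance test was run. Values in each library are given for genes with H3K27ac or H3K27me3 in both replicates, genes with a feature in 1 replicate, and the 3 highest of each class by H3K4me3 and H3K27ac. Of the other pathway genes, those with H3K27me3 and the 3 highest by H3K27ac are named. Further values, such as those in gene bodies, were named after they were seen. The genes and lists were chosen with earlier results of these data known. The 9 alternatives were a 1 kb promoter, the 5′ end only, a −log10 q of at least 5, a q of at most 0.05, a peak in either replicate, the summit inside the window, 200 bp covered, and leaving out each replicate.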

Additional observations from a re-analysis of the deposited data

How the results depend on the processing

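Of 153 recomputed counts, 135 stayed within 1.5 times the reported ones. At a −log10 q of at least 5, H3K27ac was at 0 ligands, H3K27me3 at 0 ligands and 0 receptors, and H3K4me3 with H3K27me3 at 1 gene. With a q of at most 0.05, H3K27me3 was at 0 receptors, and H3K4me3 with H3K27me3 at 7 genes. With a peak in either replicate, H3K27me3 was at 3 receptors and 2 effectors, H3K4me3 with H3K27me3 at 20 genes, and H3K4me3 was missing at 2, and gene bodies held 7 H3K27ac and 150 ATAC-seq peaks. With 200 bp covered, H3K27me3 was at 0 receptors and gene bodies held 31 ATAC-seq peaks. Leaving out each replicate in turn gave H3K27me3 at 1 to 3 receptors and 1 to 2 effectors, 2 to 4 genes without H3K4me3 and 3 to 7 H3K27ac gene body peaks, where the higher H3K27me3 counts came without replicate 1 and the higher body count without replicate 2. The cause of these changes was not tested, beyond the stricter or looser construction of each alternative. The 1 kb promoter, the 5′ end only and the summit rule moved no count by over 1.5 times. With 2 lists for each feature, an absent peak at unknown depth does not show that a mark is absent. No paired analysis was possible because the results are counts of peaks with no test.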

Other observations

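Within 50 kb of the 37 genes and outside every annotated promoter, 151 ATAC-seq, 12 H3K27ac and 8 H3K27me3 peaks were shared by both replicates. These totals add the counts of the genes, so a peak near neighbouring members is counted for each. No such count was made for all protein-coding genes, so whether the numbers are high or low is unknown. Of the 12 H3K27ac peaks, 7 lay around *Wnt7b*, a ligand whose own promoter had H3K27me3 and no H3K27ac, and 1 each around *Wnt2b*, *Wnt6*, *Wnt10a*, *Wnt11* and *Fzd9*. *Wnt6* and *Wnt10a* are neighbours and can share a peak. The H3K27me3 peaks lay around *Wnt10b* with 3, *Wnt1* with 2, *Lef1* with 2 and *Wnt6* with 1, where the neighbours *Wnt1* and *Wnt10b* can likewise share peaks. The ATAC-seq peaks were most numerous around *Fzd4* and *Wnt11*, with 12 each, then around *Wnt6* and *Wnt7b*, with 10 each. Which gene these elements act on was not measured.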
